A study of Mus musculus with 2 samples.

Results

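The transcripts of 9 immediate-early transcription factor genes were followed in the RNA-Seq count table: the 4 Fos genes (*Fos*, *Fosb*, *Fosl1* and *Fosl2*), the 3 Jun genes (*Jun*, *Junb* and *Jund*), *Atf3* and *Egr1*. They were taken by gene name, and all 9 were among the 24421 rows of the table. The data comprised 1 library of primary chondrocytes, freed with collagenase from rib cartilage and kept for no more than 2 passages, and 1 library of primary dermal fibroblasts, freed from dorsal skin, all from newborn mice. No genotype, strain or treatment was given for either library, and the number of animals behind each was not given in the sources used here. The libraries were made to narrow down transcription factors that could act on enhancers of *Sox9*, the master regulator of chondrocytes.

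Fos and Jun proteins are basic leucine zipper factors that pair with each other to form AP-1. Jun proteins can pair among themselves, whereas Fos proteins need a Jun partner. AP-1 binds a short palindrome, and the related cyclic AMP response element is bound by ATF and CREB factors, among them ATF3. EGR1 is a zinc finger factor that binds GC-rich sites. Many of these genes are transcribed within minutes of a growth factor, stretch or stress signal, without new protein synthesis, through MAP kinases and serum response factor. In cartilage, AP-1 is known for its part in chondrocyte hypertrophy and in the expression of matrix-degrading enzymes.

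Of the 9 genes, 3 were more than 2-fold higher in chondrocytes (*Fosb*, *Atf3* and *Fosl1*), 1 was more than 2-fold higher in dermal fibroblasts (*Fos*), and 5 were within 2-fold (*Jun*, *Jund*, *Junb*, *Egr1* and *Fosl2*). Over all genes of the table, 7.73% were more than 2-fold higher in chondrocytes and 10.1% were more than 2-fold higher in dermal fibroblasts. Among the 14291 genes with at least 10 counts in 1 library, which include all 9, the shares were 11.8% and 16.2%. Folds were taken on CPM, the counts scaled to a common library size adjusted with edgeR's trimmed mean of M values (TMM), and each has a 95% Clopper-Pearson interval. These intervals cover counting error only. With 1 library per cell type, no test was possible, and no fold could be compared with the spread among animals or cultures. In such bulk samples, fewer cells that express a gene and less RNA per cell cannot be told apart.

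The libraries held 18788599 counts for chondrocytes and 17563724 for dermal fibroblasts. All 6 chondrocyte markers were more than 2-fold higher in the chondrocyte library, and *Col2a1* and *Matn1* were at 0 counts in dermal fibroblasts. Of the 6 fibroblast markers, 5 were more than 2-fold higher in dermal fibroblasts, the exception being *Lum*. The fibroblast markers summed to 4291 CPM in chondrocytes and 33440 CPM in dermal fibroblasts, and the chondrocyte markers to 95960 and 20.75 CPM. Markers of other cells also differed between the libraries. The 6 keratinocyte markers summed to 4.965 CPM in chondrocytes, where *Krt6a* was at 0, and to 312.7 CPM in dermal fibroblasts, with 5 more than 2-fold higher there. The 6 endothelial markers summed to 14.6 and 49.3 CPM, with 5 more than 2-fold higher in dermal fibroblasts, and the 6 macrophage markers to 106.6 and 168.9 CPM, with 1 more than 2-fold higher there. The 6 skeletal muscle markers summed to 1328 CPM in chondrocytes and 828.7 CPM in dermal fibroblasts, with 3 more than 2-fold higher in chondrocytes. None of these other markers was at 0 in dermal fibroblasts. Their part in the folds given here was not tested. The cartilage was digested warm and the skin was digested cold and for longer. Both cell types were then put in medium with serum. The passage of the fibroblasts and the time in culture of either cell type were not given in the sources used here. Dissociation, culture and cell type therefore cannot be told apart.

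The promoters of *Fos* and *Atf3* are shown because these genes differed in opposite directions between the libraries, together with that of *Jun*, the partner gene with a related element. RefSeq start sites on GRCm38.p6 (mm10) gave a promoter for 7 of the 9 genes. Each stretch below is the 130 bases before the start site, 5′ to 3′ on the strand of the gene. Capitals mark TGACG, the 5 bases that open the cyclic AMP response element, on either strand, and in *Jun* the element TGACATCA. The stretches lie at chr12:85473760-85473889 (plus strand) for *Fos*, and on the minus strand at chr4:95052223-95052352 for *Jun* and chr1:191183334-191183463 for *Atf3*.
Fos: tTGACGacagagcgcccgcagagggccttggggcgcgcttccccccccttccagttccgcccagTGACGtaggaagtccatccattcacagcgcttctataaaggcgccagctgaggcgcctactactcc
Jun: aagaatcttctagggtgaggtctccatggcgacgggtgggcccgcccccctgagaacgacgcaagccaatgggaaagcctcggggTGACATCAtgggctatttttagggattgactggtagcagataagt
Atf3: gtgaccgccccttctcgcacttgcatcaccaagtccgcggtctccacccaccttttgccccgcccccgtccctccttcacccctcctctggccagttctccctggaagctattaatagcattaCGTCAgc

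In these promoters, TGACG began 129 and 66 bases before the start of *Fos*, and in *Atf3* it was read on the opposite strand, 7 to 3 bases before the start. The windows of *Junb*, 106 bases before the start, and *Fosb*, 60 bases before the start used there, held it too. That start of *Fosb* lies 73 bases inside the annotated span of the gene, so that its match is also inside this span, whereas the starts of the other 6 genes are the ends of their spans. The longer motif TGACNTCA, which overlaps TGACG where its N is a G, was found in *Jun* alone of the 7 genes, 45 bases before the start. Over 32851 RefSeq promoters of 300 bases around the start, 20.8% held TGACG on either strand and 8.83% held TGACNTCA. TGANTCA, which includes the AP-1 element but allows any base at its centre, was found in 0 of the 7 windows and in 7.81% of all promoters. The EGR-type motif GCGNGGGCG was found in those of *Fosb* and *Fosl2* and in 5.55% of all promoters. The CArG box, which binds serum response factor, was found in 0 of the 7 windows and in 1.63% of all promoters. *Egr1* and *Fosl1* had no promoter among the 7, and bases outside the windows were not searched. TATAAA was found in the windows of *Fos* and *Junb* and in 13.6% of all promoters. It lay 33 to 28 bases before the start of *Fos*, whereas in *Junb* it began at the start base itself. A match describes the letters of the window and was not tied to binding or to expression. TGACG was thus in the windows of *Fosb* and *Atf3*, which were higher in chondrocytes, and in that of *Fos*, which was higher in dermal fibroblasts.

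*Fos* (chromosome 12, 85473890 to 85477274) encodes c-Fos, the founding Fos protein. It had 325 counts in chondrocytes against 936 in dermal fibroblasts, which is 18.1 and 50.8 CPM. It was 2.80-fold higher in dermal fibroblasts (counting interval 2.47 to 3.19). Of the genes with at least 10 counts in 1 library, 10.9% had a lower fold of chondrocytes over dermal fibroblasts. *Fos* was thus the only one of the 9 beyond 2-fold in this direction.

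*Fosb* (chromosome 7, 19302696 to 19310118), whose product lies closest to c-Fos in the family, had the opposite direction. It had 83 counts in chondrocytes against 21 in dermal fibroblasts, or 4.63 and 1.14 CPM. The 4.06-fold difference, with an interval from 2.49 to 6.90, was the largest of the 9 genes, and its depth was the lowest. Of the genes with at least 10 counts in 1 library, 4.92% had a higher fold. The ratio of the folds of *Fosb* and *Fos* was 11.4 (counting interval 6.84 to 19.6), a value that does not depend on the scaling between the libraries.

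*Fosl1* encodes Fra-1, a Fos protein that lacks the transactivation domain of c-Fos. It had 132 counts in chondrocytes against 51 in dermal fibroblasts, or 7.36 and 2.77 CPM, and was 2.66-fold higher in chondrocytes (counting interval 1.91 to 3.75). The interval reached below 2-fold. The annotated span of *Fosl1* (chromosome 19, 5447698 to 5455938) shares 2776 bp with that of *Ccdc85b* on the opposite strand. Of the 75-base stretches in its transcript, which is the length of the reads, 62.3% also lie in the *Ccdc85b* transcript. *Ccdc85b* had 463 counts in chondrocytes against 416 in dermal fibroblasts, a fold of 1.14 (counting interval 0.999 to 1.31). Whether the counting used the strand was not given in the sources used here, so that reads of the pair may be mixed. Without *Fosl1*, 2 genes were more than 2-fold higher in chondrocytes.

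*Fosl2* (chromosome 5, 32136472 to 32157840) encodes Fra-2, a Fos protein of skeletal cells. It was the most abundant Fos gene in both libraries, with 3094 counts in chondrocytes against 4559 in dermal fibroblasts, or 172.6 and 247.6 CPM. It was 1.43-fold higher in dermal fibroblasts (counting interval 1.37 to 1.502) and stayed within 2-fold. Together the 4 Fos genes had 3634 and 5567 counts, and their sum was 1.49-fold higher in dermal fibroblasts (counting interval 1.43 to 1.56).

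The 3 Jun genes were each within 2-fold between the libraries. *Jun* (chromosome 4, 95049036 to 95052222), whose c-Jun protein is the main activator among the Jun proteins, had 1637 counts in chondrocytes against 1415 in dermal fibroblasts, or 91.3 and 76.9 CPM. Its fold was 1.19 (counting interval 1.11 to 1.28). *Junb* (chromosome 8, 84976909 to 84978748), whose product can hold back c-Jun, had 1770 and 2205 counts, or 98.7 and 119.8 CPM, and was 1.21-fold higher in dermal fibroblasts (counting interval 1.14 to 1.29). The direction thus differed between *Jun* and *Junb*, and the ratio of their folds was 1.44 (counting interval 1.31 to 1.59).

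*Jund* (chromosome 8, 70697739 to 70700616), the Jun gene known for steady expression, had 1990 counts in chondrocytes against 2103 in dermal fibroblasts, or 111 and 114.2 CPM. Its fold was 0.972 with an interval from 0.914 to 1.03, and its direction changed with the scaling (0.885 with total counts and 1.06 with *Actb*). In GENCODE vM1, 16.3% of the 75-base stretches of *Jund* transcripts also lie in *Gm11175*, a gene model on the opposite strand that was not analysed here. Apart from *Jund* and *Fosl1*, the genes shared no 75-base stretch with the protein-coding transcripts of another gene. The 3 Jun genes together had 5397 and 5723 counts, a fold of 0.969 (counting interval 0.933 to 1.005), which likewise ranged from 0.882 to 1.05 with the scaling.

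*Atf3* (chromosome 1, 191170296 to 191183333) encodes a stress-induced partner of Jun proteins that, as a homodimer, represses transcription. It had 1102 counts in chondrocytes against 397 in dermal fibroblasts, or 61.5 and 21.6 CPM. It was 2.85-fold higher in chondrocytes, and the whole interval, from 2.54 to 3.21, lay above 2-fold. Of the genes with at least 10 counts in 1 library, 7.30% had a higher fold. In chondrocytes *Atf3* had 3.39 times the counts of *Fos* (counting interval 2.99 to 3.85), whereas in dermal fibroblasts it had 0.424 times as many (counting interval 0.376 to 0.477). The order of these 2 genes was therefore opposite in the libraries, also per exon length, where the ratios were 4.02 and 0.503.

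*Egr1* was the most abundant of the 9 genes in both libraries. It had 3900 counts in chondrocytes against 5319 in dermal fibroblasts, or 217.6 and 288.9 CPM, and was 1.33-fold higher in dermal fibroblasts (counting interval 1.27 to 1.38). Of the genes with more than 3 counts in 1 library, 95.5% had fewer counts than *Egr1* in chondrocytes and 96.9% in dermal fibroblasts.

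**Figure D1:**
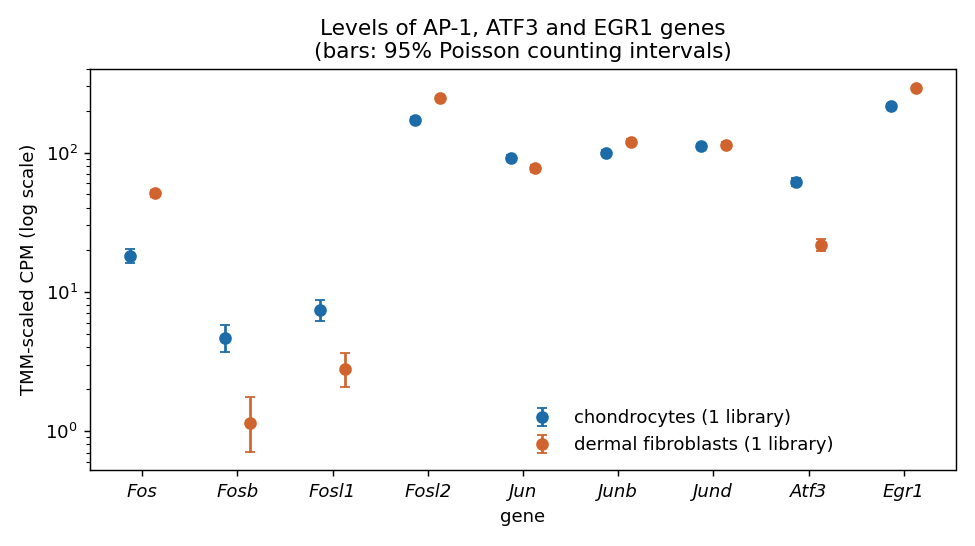
Level of each of the 9 genes (x axis) in TMM-scaled CPM on a log axis (y axis), with chondrocytes in blue, dermal fibroblasts in orange and 95% Poisson counting intervals as bars, for 1 library each. The levels run from 1.14 CPM (*Fosb* in dermal fibroblasts) to 288.9 CPM (*Egr1* in dermal fibroblasts), and the points of the libraries cross over between *Fos* and *Fosb*.

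Ordered by fold, the genes ran from *Fosb* through *Atf3*, *Fosl1*, *Jun*, *Jund*, *Junb*, *Egr1* and *Fosl2* to *Fos*. The ratio of folds was computed for all 36 pairs, with no correction for their number, and its counting interval excluded 1 for 33 of them. The 3 exceptions were the pairs among *Fosb*, *Atf3* and *Fosl1*. For *Atf3* over *Fosl1* the ratio was 1.07 (counting interval 0.745 to 1.525), and for *Fosb* over *Atf3* it was 1.42 (counting interval 0.860 to 2.45). These 3 genes could not be ordered at this depth. *Fosl1* and *Jun*, the next pair in the order, were separated by a ratio of 2.24 (counting interval 1.59 to 3.18), and *Fosl2* and *Fos*, at the other end, by 1.95 (counting interval 1.71 to 2.24).

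**Figure D2:**
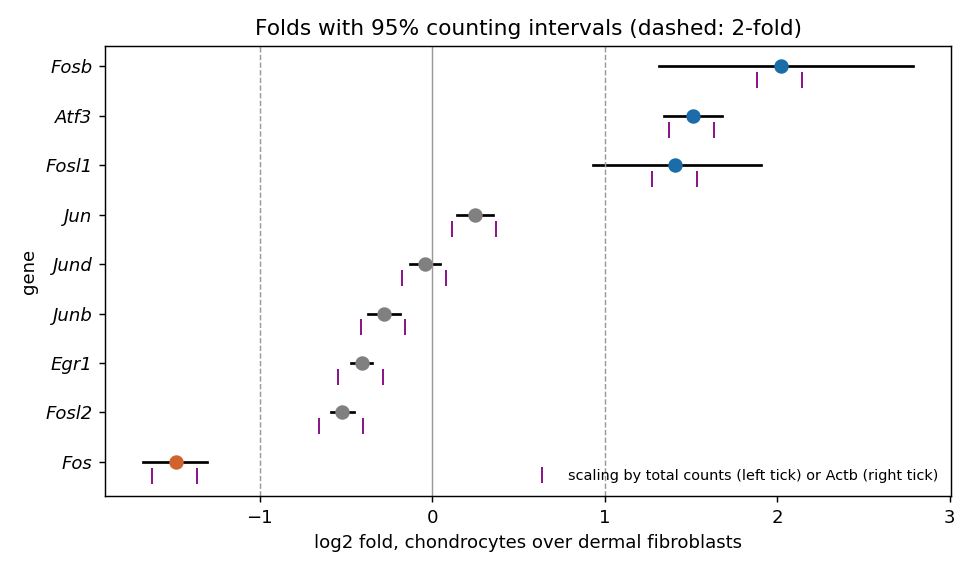
Log2 fold of chondrocytes over dermal fibroblasts (x axis) for each gene (y axis), with 95% counting intervals as black lines, dashed lines at 2-fold, and purple ticks for scaling by total counts or *Actb*. *Fosb*, *Atf3* and *Fosl1* lie to the right of the 2-fold line, *Fos* lies to the left, and *Jund* sits at -0.04.

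**Figure D3:**
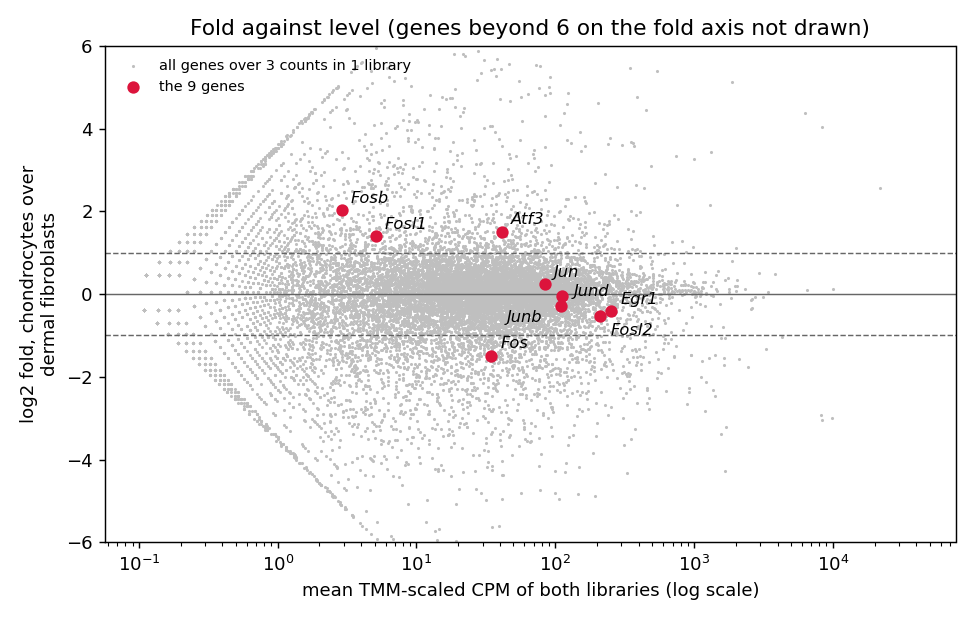
Log2 fold of chondrocytes over dermal fibroblasts (y axis) against the mean TMM-scaled CPM of both libraries on a log axis (x axis), with all 15616 genes that had more than 3 counts in 1 library in grey and the 9 genes in red; counts under 3 were set to 3, and genes beyond 6 on the fold axis are not drawn. The 5 most abundant of the 9 genes lie within 2-fold.

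Levels of different genes were compared within a library per kilobase of exon, with exon lengths from GENCODE vM1. In chondrocytes the order was *Egr1* (70.2 CPM per kilobase), *Junb* (54.6), *Jund* (38.6), *Atf3* (31.0), *Fosl2* (29.5), *Jun* (28.6), *Fos* (7.71), *Fosl1* (4.31) and *Fosb* (1.23). The neighbours *Atf3* and *Fosl2* (ratio 1.05, interval 0.9804 to 1.13) and *Fosl2* and *Jun* (ratio 1.03, interval 0.969 to 1.09) did not differ beyond counting error. In dermal fibroblasts the order was *Egr1* (93.2 CPM per kilobase), *Junb* (66.3), *Fosl2* (42.3), *Jund* (39.7), *Jun* (24.1), *Fos* (21.6), *Atf3* (10.9), *Fosl1* (1.62) and *Fosb* (0.304). There, each neighbour differed from the next beyond counting error on these lengths, with a ratio of 1.07 for *Fosl2* and *Jund* (interval 1.01 to 1.12) and of 1.11 for *Jun* and *Fos* (interval 1.03 to 1.21). With the length of the longest transcript in place of all exons, *Fos* was at 24.12 CPM per kilobase, level with *Jun*, so that the order of *Jun* and *Fos* rests on the length used. *Egr1* and *Junb* thus led in both libraries and *Fosl1* and *Fosb* came last, while *Atf3* stood above *Fos* in chondrocytes and below it in dermal fibroblasts.

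The make-up of the Fos pool within each library does not depend on the scaling between them. *Fosl2* took 85.1% of the Fos family counts in chondrocytes (counting interval 83.9 to 86.3) and 81.9% in dermal fibroblasts (counting interval 80.9 to 82.9). *Fos* took 8.94% (counting interval 8.04 to 9.92) and 16.8% (counting interval 15.8 to 17.8). *Fosb* took 2.28% in chondrocytes and 0.377% in dermal fibroblasts. Per exon length, the share of *Fosl2* was 69.0% and 64.2%, that of *Fos* 18.04% and 32.8%, and that of *Fosl1*, which has the shortest exons, 10.1% and 2.465%. The Fos pool of chondrocytes therefore held a smaller share of *Fos* and a larger share of each of the other 3 genes.

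In the Jun pool, *Jun* took 30.3% of the counts in chondrocytes (counting interval 29.1 to 31.6) and 24.7% in dermal fibroblasts (counting interval 23.6 to 25.9). *Junb* took 32.8% (counting interval 31.5 to 34.1) and 38.5% (counting interval 37.3 to 39.8), and *Jund* took 36.9% and 36.7%, with intervals that overlapped. Per exon length, *Junb* had the largest share in both, at 44.8% and 51.0%. The 4 Fos genes had 0.673 times the counts of the 3 Jun genes in chondrocytes (counting interval 0.645 to 0.702) and 0.973 times in dermal fibroblasts (counting interval 0.937 to 1.01). Per exon length, these ratios were 0.351 and 0.506, so that Jun transcripts outnumbered Fos transcripts in both libraries on that scale.

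**Figure D4:**
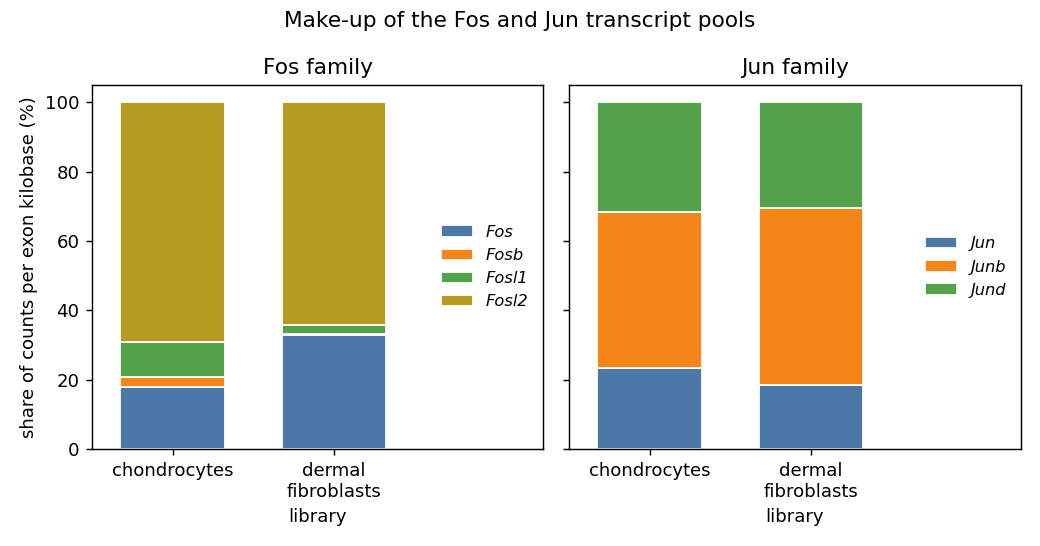
Share of each gene in the counts per exon kilobase of its family (y axis, %), as stacked bars for the chondrocyte and the dermal fibroblast library (x axis), with the Fos family on the left and the Jun family on the right. *Fosl2* fills the largest part of the Fos bars (69.0% and 64.2%) and *Junb* the largest part of the Jun bars (44.8% and 51.0%).

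Other basic leucine zipper genes that can pair with Fos or Jun proteins were set beside these genes. Of 13 listed, 11 had more than 3 counts in 1 library. Among these, 1 was more than 2-fold higher in chondrocytes, 2 were more than 2-fold higher in dermal fibroblasts, and the median log2 fold was -0.26. Over all 15616 genes with more than 3 counts in 1 library, 1887 were more than 2-fold higher in chondrocytes and 2468 in dermal fibroblasts. The other 11261 were within 2-fold. The median log2 fold of all 15616 was 0.00. These counts are the background for this list and for each list below. Some genes beyond 2-fold, here and in the lists below, were chosen for mention after their values were seen. Here, *Batf3* had 19 counts in chondrocytes against 6 in dermal fibroblasts, and *Mafa* had 7 and 16. Both calls rest on few reads, and no interval is given for them. *Jdp2*, which encodes a Jun dimerization partner that represses AP-1, had 1319 and 1624 counts, 1.20-fold higher in dermal fibroblasts (counting interval 1.11 to 1.29). *Atf7* had 1654 and 1840 counts, *Maf* had 938 and 1509, and *Mafk* had 680 and 536, all within 2-fold.

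Of 16 CREB, ATF and C/EBP genes, 1 was more than 2-fold higher in chondrocytes, 2 were more than 2-fold higher in dermal fibroblasts, and the median log2 fold was -0.06. *Creb3l2* and *Creb3l1*, paralogs that encode membrane-bound factors of the secretory pathway, lay at opposite ends. *Creb3l2* had 4014 counts in chondrocytes against 1352 in dermal fibroblasts, 3.05-fold higher in chondrocytes (counting interval 2.87 to 3.25). *Creb3l1* had 1291 and 3945 counts, 2.98-fold higher in dermal fibroblasts (counting interval 2.79 to 3.17). *Atf4*, the factor of the integrated stress response that activates *Atf3*, had 11671 and 8665 counts and a fold of 1.38 (counting interval 1.345 to 1.42), and *Atf5* had 5611 and 9639 counts. *Creb5*, the remaining gene beyond 2-fold, had 29 and 65 counts.

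The EGR relatives of *Egr1* lay on both sides. Of 5 genes for other EGR factors and their NAB corepressors, 2 were more than 2-fold higher in chondrocytes and 1 was more than 2-fold higher in dermal fibroblasts, with a median log2 fold of -0.70. *Egr3* had 272 counts in chondrocytes against 91 in dermal fibroblasts and was 3.07-fold higher in chondrocytes (counting interval 2.41 to 3.94). *Egr2* had 183 and 421 counts and was 2.24-fold higher in dermal fibroblasts (counting interval 1.88 to 2.68). *Egr4*, the other gene counted as higher in chondrocytes, had 10 and 4 counts, so that its call rests on few reads. *Egr1* outnumbered *Egr3* 14.3 times in chondrocytes (counting interval 12.7 to 16.3) and 58.5 times in dermal fibroblasts (counting interval 47.5 to 72.7). *Nab1* and *Nab2*, which encode corepressors that bind EGR proteins, had 782 and 1195 counts in chondrocytes against 1306 and 2336 in dermal fibroblasts. They were 1.63-fold (counting interval 1.49 to 1.78) and 1.90-fold (counting interval 1.77 to 2.04) higher there.

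Of 27 other immediate-early genes, 4 were more than 2-fold higher in chondrocytes, 2 were more than 2-fold higher in dermal fibroblasts, and 21 were within 2-fold, with a median log2 fold of 0.05. *Ctgf*, a secreted matrix protein abundant in cartilage, had 43816 counts in chondrocytes against 4141 in dermal fibroblasts and was 10.9-fold higher in chondrocytes (counting interval 10.5 to 11.2). Its relative *Cyr61* had 24254 and 11351 counts and was 2.195-fold higher in chondrocytes (counting interval 2.15 to 2.24). Also beyond 2-fold toward chondrocytes were *Dusp1*, which encodes a MAP kinase phosphatase, with 2560 and 810 counts, and *Ptgs2*, which encodes cyclooxygenase 2, with 477 and 117 counts. *Zfp36*, which encodes a protein that destabilizes short-lived mRNAs, had 668 and 1511 counts and was 2.202-fold higher in dermal fibroblasts (counting interval 2.01 to 2.42). *Klf6* had 2362 and 4957 counts and was 2.04-fold higher in dermal fibroblasts, with an interval from 1.945 to 2.15 that reached below 2-fold, and *Rhob* had 2568 and 3405 counts.

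**Figure D5:**
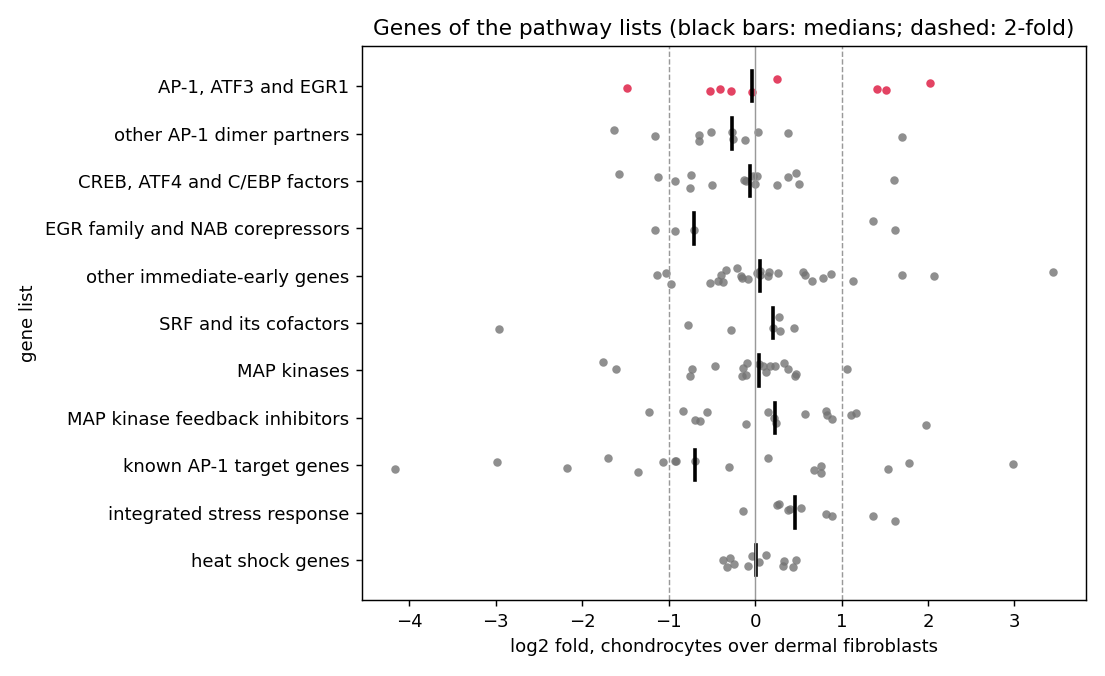
Log2 fold of chondrocytes over dermal fibroblasts (x axis) for every gene with more than 3 counts in 1 library in each list (y axis), with the 9 genes in red, list medians as black bars and dashed lines at 2-fold; counts under 3 were set to 3, and the vertical scatter within a list carries no value. The medians lie between -0.70 and 0.46, and the known AP-1 targets spread from -4.17 to 2.98.

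Upstream of the 9 genes, most MAP kinase genes were within 2-fold, as were 11261 of the 15616 background genes. Of 19 MAP kinase genes with more than 3 counts in 1 library, 1 was more than 2-fold higher in chondrocytes, 2 were more than 2-fold higher in dermal fibroblasts, and the median log2 fold was 0.05. *Mapk3*, which encodes an ERK kinase, had 1955 counts in chondrocytes against 1942 in dermal fibroblasts. *Mapk12*, a p38 kinase gene, had 62 and 216 counts and was 3.39-fold higher in dermal fibroblasts (counting interval 2.55 to 4.575). Another p38 gene, *Mapk11*, had 63 and 197 counts, and *Map2k6*, which encodes a p38 activator, had 51 and 25. *Map2k1*, which encodes an activator of ERK, had 1426 and 2421 counts and was 1.65-fold higher in dermal fibroblasts (counting interval 1.55 to 1.77). Of 7 genes for serum response factor and its cofactors, 6 were within 2-fold, with a median log2 fold of 0.20, and the exception was *Myocd*, with 3 and 24 counts. *Srf* itself had 1830 and 1545 counts, a fold of 1.22 (counting interval 1.14 to 1.30).

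Of 16 feedback inhibitors of MAP kinases, 3 were more than 2-fold higher in chondrocytes and 1 was more than 2-fold higher in dermal fibroblasts, with a median log2 fold of 0.23. *Dusp14*, a phosphatase gene, had 522 counts in chondrocytes against 136 in dermal fibroblasts and was 3.94-fold higher in chondrocytes (counting interval 3.26 to 4.797). *Dusp7* had 326 and 785 counts and was 2.34-fold higher in dermal fibroblasts (counting interval 2.06 to 2.68). *Dusp5* had 166 and 79 counts and *Dusp9* had 105 and 48, the remaining genes beyond 2-fold. *Spred1*, which encodes an inhibitor of Raf activation, had 2076 and 1425 counts and a fold of 1.496 (counting interval 1.40 to 1.60).

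Genes known as AP-1 targets differed in both directions. Of 17 listed, 3 were more than 2-fold higher in chondrocytes, 6 were more than 2-fold higher in dermal fibroblasts, and the median log2 fold was -0.70. *Mmp13*, the collagenase of hypertrophic cartilage, had 2276 counts in chondrocytes against 296 in dermal fibroblasts and was 7.90-fold higher in chondrocytes (counting interval 6.99 to 8.94). *Mmp3*, the stromelysin gene, had 66 and 1217 counts and was 17.95-fold higher in dermal fibroblasts (counting interval 14.0 to 23.4). *Spp1*, which encodes osteopontin, had 9639 and 3413 counts and was 2.90-fold higher in chondrocytes (counting interval 2.79 to 3.02). *Timp1*, an inhibitor of metalloproteinases, and *Hmox1*, heme oxygenase, were 1.70-fold and 1.60-fold higher in chondrocytes. Another target beyond 2-fold was *Hbegf*, with 538 counts in chondrocytes against 161 in dermal fibroblasts. Toward dermal fibroblasts, *Ccl2* (356 and 2907), *Mmp9* (101 and 468), *Il6* (24 and 63) and *Mmp10* (2 and 10) were beyond 2-fold. The call of *Mmp10* rests on few reads.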

How the data were processed

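RNA-Seq was performed on 1 library per cell type. According to the study's methods and the submitters' processing notes, bases were called with CASAVA 1.8.2, and single-end reads of 75 bp from stranded libraries were mapped to mm10 with TopHat2 2.0.13, Bowtie2 2.2.3 and SAMtools 0.1.19. The authors deposited whole-number read counts per gene name, without normalization. The counting program, its annotation and its strand setting were not given in the sources used here.

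TMM factors were computed over all 24421 rows with edgeR 4.0.16 in R 4.3.3, and all other values with scipy 1.17.1, numpy 2.4.6 and pandas 2.3.3 in Python 3.11.15. DESeq2 1.42.0 gave an alternative scaling. For each fold, a count under 3 was raised to 3, and genes at 3 counts or fewer in both libraries were given no fold. Intervals are 95% Clopper-Pearson intervals for folds and shares, conditional exact intervals for ratios of folds and Poisson intervals for levels. They cover counting error only: without molecular identifiers, the reads are no independent molecules. No p-value was computed, as each cell type had 1 library. Exon lengths and shared 75-base stretches came from GENCODE vM1 (NCBIM37), which named all 9 genes. Positions and promoters came from RefSeq on GRCm38. The calculations were tested on simulated data.

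Alternatives were other scalings, floors, a pseudocount, a filter on low counts and stricter thresholds. The genes and lists were chosen with earlier results of these data known, and the motifs and promoters shown after the sequences had been read. Named genes were the 9 members and, of each pathway list, the 4 with the highest mean CPM and the highest and lowest fold among those with at least 100 counts in 1 library. No genes were named for a similar pattern, since 2 libraries give 1 ratio per gene. Other genes named are cell type markers, *Actb*, the genes that overlap a member, and those said to have been chosen after their values were seen. Some genes that this rule names are not reported here.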

Additional observations from a re-analysis of the deposited data

How the results depend on the processing

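No paired analysis was possible because there was only 1 library of either cell type, and no library could be left out for the same reason. Of 72 recomputed folds of the 9 genes, 62 stayed within the counting interval of the reported value. Those with a floor of 1 or 10 counts could not move, since none of the 9 genes had fewer than 21 counts. Each scaling moved all 9 folds by the same factor, so that staying within the interval depended on its width. The 10 of the 72 outside their interval came from scaling by total counts, which moved log2 folds by -0.14, and by *Actb*, which moved them by 0.12. As chondrocytes over dermal fibroblasts, they were 0.634 and 0.759 for *Fosl2*, 1.08 and 1.29 for *Jun*, 0.7504 and 0.8975 for *Junb*, 0.885 and 1.06 for *Jund*, and 0.685 and 0.820 for *Egr1*. *Jund* was the only one of the 9 whose direction changed under any alternative. With a fold over 4, 1 of the 9 genes was higher in chondrocytes and 0 in dermal fibroblasts, and the counts over all genes went from 1887 and 2468 to 713 and 929. With the whole interval beyond 2-fold, they were 1041 and 1546. A pseudocount of 1 in place of the floor gave 2876 genes higher in chondrocytes. Leaving out *Fosl1*, an alternative chosen after seeing the data, gave 2 and 1. Of 90 recomputed list medians, 82 stayed within the median counting interval of their genes. The sign of the median changed among the alternatives for the CREB, ATF and C/EBP genes (-0.20 to 0.06) and the MAP kinases (-0.09 to 0.17). It also changed for the other immediate-early genes (-0.08 to 0.18) and the heat shock genes (-0.13 to 0.13). The remaining lists kept their sign. *Fosb* had 21 counts in dermal fibroblasts, which limits its fold most.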

Other observations

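*Atf3* is also a gene of the integrated stress response, and other genes of that response were compared. Of 10 listed, 2 were more than 2-fold higher in chondrocytes, 0 were more than 2-fold higher in dermal fibroblasts, and the median log2 fold was 0.46, which ranged from 0.33 to 0.59 over the alternatives. *Gdf15*, a stress-induced cytokine gene, had 458 counts in chondrocytes against 153 in dermal fibroblasts and was 3.07-fold higher in chondrocytes (counting interval 2.555 to 3.72). *Ppp1r15a*, whose product GADD34 restores translation, had 4980 and 1980 counts and was 2.58-fold higher in chondrocytes (counting interval 2.45 to 2.72). *Asns*, which encodes asparagine synthetase, had 4693 and 3345 counts, *Psat1*, a serine synthesis gene, had 5422 and 4589, and *Trib3*, a pseudokinase gene, had 2911 and 3302. These 3 genes were within 2-fold.

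The 12 heat shock genes were all within 2-fold, with a median log2 fold of 0.01 and a range from -0.37 to 0.47. Of the 15616 background genes, 11261 were within 2-fold. *Hsp90ab1* had 40525 counts in chondrocytes against 32920 in dermal fibroblasts, *Hspa8* had 33339 and 31276, and *Hsp90aa1* had 10459 and 7936. *Hspa5*, the chaperone gene of the endoplasmic reticulum, had the highest fold of the list at 1.39 (30088 and 22314 counts), and *Dnaja1* the lowest at 0.773 (2276 and 3026 counts).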
